A study of Mus musculus with 22 samples.

Results

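The BCL2 family decides whether the outer membrane of the mitochondria is opened during intrinsic apoptosis, and 10 of its genes were followed here in the testes of mice without MLX. They were chosen by name from the rows of the RNA sequencing (RNA-seq) count table, with earlier results of these data known. They are Bcl2l11, Bbc3, Pmaip1, Bid, Bmf, Bax, Bak1, Bcl2, Bcl2l1 and Mcl1. All 10 were among the 17931 gene symbols of the table, and all 10 passed the filter on low counts that left 14640 genes for testing.

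RNA was taken from the whole testes of 3 wild-type (WT) mice and 3 Mlx knockout (MLX KO) mice, all 7 months old, with no treatment. Each MLX KO male had a WT littermate of the same age, which made 3 pairs, and the WT males were verified fertile breeders. The knockout is constitutive. The allele was made in mouse embryonic stem cells and lacks the exons that encode the domain through which MLX binds DNA and its partner proteins, while later sequence of the gene stays in place, so that every cell type of the testis carries the deletion. MLX is a transcription factor of the extended MYC network that acts with the glucose-responsive proteins MondoA and ChREBP.

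In this family, BH3-only proteins sense damage or lost survival signals, pro-survival proteins bind and hold them, and the effectors BAX and BAK form the pore through which cytochrome c leaves the mitochondria. Released cytochrome c assembles the apoptosome, which activates caspases. In the testis this pathway is known for removing surplus and damaged germ cells, and BIM, BAX and BCL-XL are among the members best known for that role in the mouse.

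The libraries held between 16674678 and 19742726 counts. Levels are given as CPM, the counts scaled to a common library size after adjustment by the trimmed mean of M values (TMM), and differences as the log2 fold change (LFC) of MLX KO relative to WT with its standard error (SE) from edgeR's quasi-likelihood test. Adjusted p-values are Benjamini-Hochberg values over all 14640 genes from that test, and the threshold was 0.05. The Mlx transcript was counted 128, 96 and 98 times in the WT libraries and 94, 109 and 102 times in the MLX KO libraries (LFC -0.18 ± 0.14 SE, adjusted p = 0.326). Its groups overlapped, and because the table counts reads over the whole gene, including what the allele leaves in place, this count does not check the genotype labels. The change across the transcriptome was broad. With library size alone in place of TMM, the median LFC of all genes moved from 0.0250 to 0.164, and the split of 3632 genes higher and 3015 lower became 5338 higher and 1269 lower.

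Transcripts of 7 of the 10 family members passed the threshold in MLX KO testes, where 45.4% of all genes tested passed it. Bcl2l11, Bbc3, Bid, Bax and Mcl1 were higher, which is 5 of 10 beside 24.8% of all genes. Pmaip1 and Bcl2l1 were lower, which is 2 of 10 beside 20.6% of all genes. Bmf, Bcl2 and Bak1 did not pass. The median LFC of the 10 members was 0.40, beside 0.0250 for all genes tested. With library size alone these medians were 0.54 and 0.164, and 6 members were higher and 0 lower, beside 36.5% and 8.67% of all genes: Bmf passed, and Pmaip1 and Bcl2l1 no longer did (LFC -0.37 and -0.02). DESeq2, another count test, called 4 of the 10, close to the 39.4% of all genes it called, and DESeq2 with the littermate pair as a block called 2, Bcl2l11 and Mcl1, below its 31.4% of all genes. When edgeR took the littermate pair as a block, 7 members passed, beside 46.1% of all genes. The CPM values of the WT and MLX KO groups did not overlap for 8 of the 10 members, beside 56.2% of all genes. For 6 members every MLX KO value lay above every WT value (30.3% of all genes), and for 2 every value lay below (25.9%). Compared within the littermate pairs, 7 members were higher in MLX KO in all 3 pairs, beside 36.9% of all genes, and 2 were lower in all 3, beside 31.7%.

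**Figure D1:**
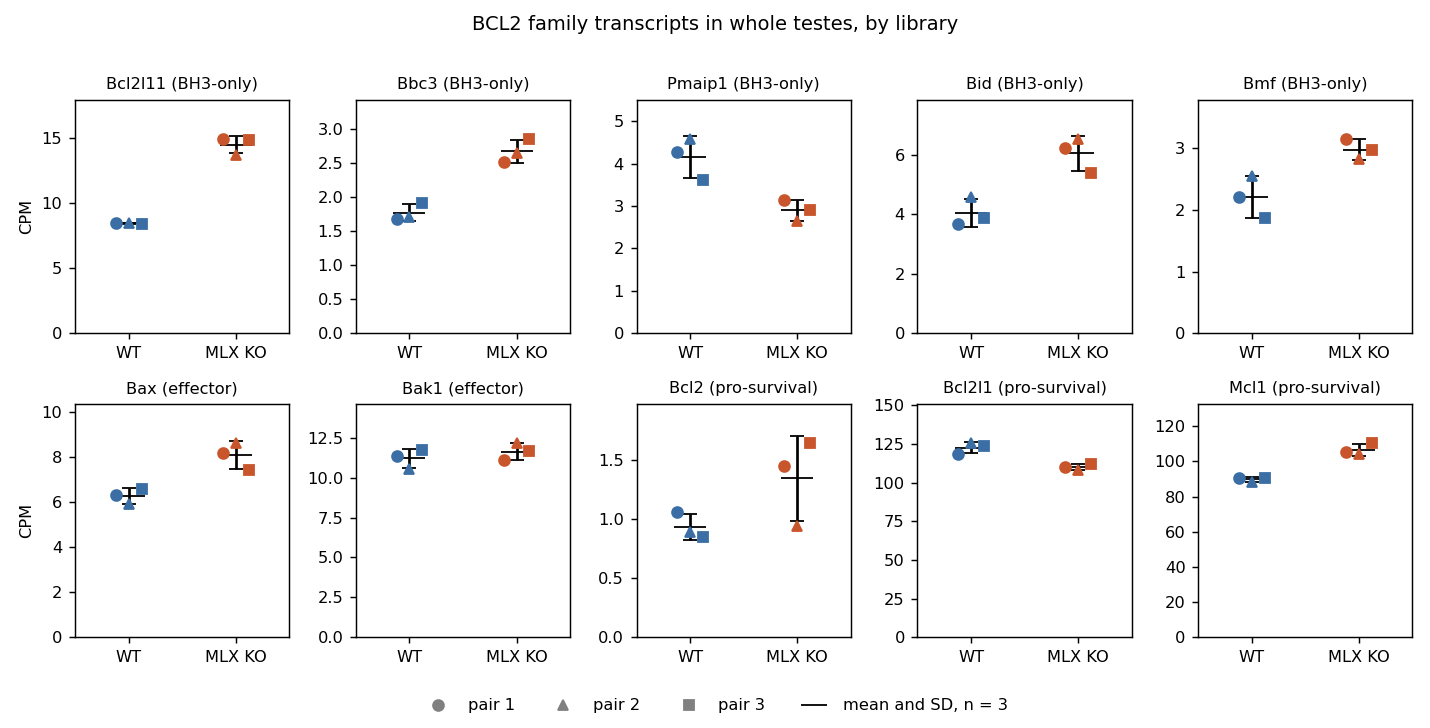
CPM (vertical axes, from 0) of each of the 10 BCL2 family members in the 3 WT and 3 MLX KO libraries. Points are libraries, with the marker shape giving the littermate pair, and bars are the group mean and SD. The groups are apart for 8 members, and overlap for Bak1 and Bcl2.

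Among the 5 BH3-only genes, 3 rose, 1 fell and 1 did not pass. Bcl2l11 encodes BIM, which binds all the main pro-survival proteins and is induced when growth factor or hormone support is withdrawn. It was counted 161, 133 and 149 times in the WT libraries and 289, 248 and 280 times in the MLX KO libraries. These are 8.48, 8.45 and 8.40 CPM in WT and 14.9, 13.7 and 14.8 CPM in MLX KO. The WT values lay almost on each other, and the lowest MLX KO value was far above the highest of them. Bcl2l11 was 1.71-fold higher in MLX KO (95% interval 1.49 to 1.97, LFC 0.78 ± 0.09 SE, adjusted p = 9.38e-05 by edgeR's quasi-likelihood test). By adjusted p it ranked 586 of the 14640 genes, and 89.9% of all genes had a lower LFC. The increase was 0.81, 0.70 and 0.82 on the log2 scale in the 3 littermate pairs. It stayed past the threshold in all 15 alternative settings, with an LFC between 0.75 and 0.92. The spread of the WT values was 0.515% of their mean, below the 8.23% that counting alone gives at this depth, so these 3 libraries are closer together than their counts can resolve.

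Bcl2l11 has 2 RefSeq promoter windows in the mouse build GRCm38.p6, both on chromosome 2, and its gene spans chr2:128126038-128162547 on the plus strand. A window here is the 300 bases from 250 before to 50 after an annotated transcription start site. They were searched on both strands for CACGTG, the E-box, which reads the same on both strands and which MAX and MLX dimers are known to recognise. Neither window of Bcl2l11 holds it. Of the 9 members with windows read here, 2 hold it, Bbc3 and Bax, beside 11.1% of tested genes with a window, and of all 32851 windows 2349 (7.15%) hold it. Bid and Mcl1 also rose, and their windows hold no E-box. For Bcl2l11, Bbc3 and Bax a window each is shown because all 3 rose and they differ in this motif, with the E-box in capitals.

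Bcl2l11, chr2:128125788-128126087, plus strand: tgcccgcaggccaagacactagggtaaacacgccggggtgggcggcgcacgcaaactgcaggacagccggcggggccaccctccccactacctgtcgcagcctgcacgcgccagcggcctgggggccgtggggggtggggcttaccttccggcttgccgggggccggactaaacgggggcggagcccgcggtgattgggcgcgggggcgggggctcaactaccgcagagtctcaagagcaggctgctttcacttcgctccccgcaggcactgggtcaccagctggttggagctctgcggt

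Bbc3, chr7:16310181-16310480, plus strand: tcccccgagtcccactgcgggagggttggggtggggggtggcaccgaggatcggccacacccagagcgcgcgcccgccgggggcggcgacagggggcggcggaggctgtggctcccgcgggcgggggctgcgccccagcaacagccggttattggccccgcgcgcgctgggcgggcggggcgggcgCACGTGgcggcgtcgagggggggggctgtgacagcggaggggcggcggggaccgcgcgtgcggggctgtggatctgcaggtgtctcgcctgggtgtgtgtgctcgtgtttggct

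Bax, chr7:45466849-45467148, minus strand: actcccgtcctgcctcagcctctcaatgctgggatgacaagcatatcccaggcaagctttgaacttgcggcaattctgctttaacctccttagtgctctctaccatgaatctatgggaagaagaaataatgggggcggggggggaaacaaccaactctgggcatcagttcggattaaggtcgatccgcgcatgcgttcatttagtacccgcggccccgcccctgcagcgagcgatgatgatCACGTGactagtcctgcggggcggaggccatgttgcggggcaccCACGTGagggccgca

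Each line reads 5′ to 3′ on the gene's own strand. The E-box of Bbc3 begins at -64 from the start site, in 1 of its 3 windows. The Bax window holds 2, beginning at -9 and at +36, and windows with at least 2 make up 0.594% of the 32851. The arrangement of an E-box, 5 bases and another E-box, the form of the carbohydrate response element, was in 0 of the 32851 windows as an exact match. A match describes letters only, and no binding data were analysed here.

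Bbc3 encodes PUMA, a BH3-only protein best known as a target of p53, and lies at chr7:16308398-16318334 on the plus strand. It was counted only 32, 27 and 34 times in the WT libraries, and 49, 48 and 54 times in the MLX KO libraries. These are 1.69, 1.72 and 1.92 CPM in WT and 2.53, 2.65 and 2.86 CPM in MLX KO. The groups were apart, with every MLX KO library above every WT library. The level was 1.51-fold higher (95% interval 1.13 to 2.02, LFC 0.59 ± 0.19 SE, adjusted p = 0.0247 by edgeR's quasi-likelihood test). The 3 pairs gave increases of 0.58, 0.63 and 0.58 on the log2 scale. DESeq2 did not call it (adjusted p = 0.147), and in edgeR the call was lost without WT1, without WT2, without KO2 or without KO3, with an LFC of 0.55 to 0.65 over all samples left out in turn.

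Bid encodes the protein that caspase-8 cuts to carry a death receptor signal to the mitochondria, and lies at chr6:120893119-120917062 on the minus strand. It was counted 70, 72 and 69 times in WT and 121, 118 and 102 times in MLX KO. These are 3.69, 4.58 and 3.89 CPM in WT and 6.24, 6.52 and 5.40 CPM in MLX KO. The lowest MLX KO library, KO3, was above the highest WT library, WT2. Bid was 49.8% higher (95% interval of the fold 1.196 to 1.88, LFC 0.58 ± 0.15 SE, adjusted p = 0.00795 by edgeR's quasi-likelihood test). It passed in 14 of the 15 alternative settings, DESeq2 among them, and missed in DESeq2 with the pair block (adjusted p = 0.101). The exons of Bid share 628 bases with Bcl2l13 on the opposite strand, which gave between 809 and 1002 counts a library and an LFC of 0.05. Whether the counting used strand is not stated, so reads of these shared bases cannot be assigned to 1 gene with certainty.

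Pmaip1 was the BH3-only gene that fell. It encodes NOXA, a partner of MCL1 that promotes the breakdown of MCL1. It was counted 81, 72 and 64 times in WT and 61, 48 and 55 times in MLX KO. These are 4.27, 4.58 and 3.61 CPM in WT and 3.14, 2.65 and 2.91 CPM in MLX KO. Every MLX KO library was below every WT library, by the least between WT3 and KO1. The level in MLX KO was 0.702 of that in WT (95% interval 0.544 to 0.905, LFC -0.51 ± 0.17 SE, adjusted p = 0.0272 by edgeR's quasi-likelihood test). The pairs gave -0.44, -0.79 and -0.31. The call was lost in DESeq2 (adjusted p = 0.0825), and in edgeR without WT1, without WT2, without KO2 or without KO3.

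Bmf encodes a BH3-only protein held at the cytoskeleton through dynein light chain, and lies at chr2:118528757-118549686 on the minus strand. It gave 33 to 42 counts in WT and 51 to 61 in MLX KO, or 2.21 ± 0.341 CPM against 2.98 ± 0.163 CPM (SD, n = 3). The groups did not overlap, but the difference did not pass (LFC 0.44, 95% interval 0.02 to 0.85, adjusted p = 0.0814 by edgeR's quasi-likelihood test). The pairs gave 0.51, 0.15 and 0.67.

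Bbc3 and Pmaip1, both well known targets of p53, thus moved in opposite directions. The ratio of their counts within a library needs no scaling between libraries. Because the groups of each gene were apart, in opposite directions, those of the ratio had to be apart too. Bbc3 counts per Pmaip1 count were 0.395, 0.375 and 0.531 in the WT libraries, against 0.803, 1.00 and 0.982 in the MLX KO libraries, apart in the 2 groups, with means that differed 2.14-fold.

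Of the effectors, Bax rose and Bak1 showed no difference that passed the test. Bax, at chr7:45461695-45466903 on the minus strand, was counted 120, 93 and 117 times in WT and 159, 156 and 140 times in MLX KO. These are 6.32, 5.91 and 6.59 CPM in WT and 8.20, 8.63 and 7.41 CPM in MLX KO. The groups were apart, with the narrowest gap between WT3 and KO3. Bax was 1.28-fold higher (95% interval 1.07 to 1.54, LFC 0.36 ± 0.12 SE, adjusted p = 0.0281 by edgeR's quasi-likelihood test). The pairs gave 0.37, 0.55 and 0.17. The exons of Bax share 192 bases with Gm45808 on the same strand, which is not among the counted genes, so reads of these bases cannot be assigned with certainty. DESeq2 did not call it (adjusted p = 0.134), and in edgeR the call was lost without WT1, without WT2 or without KO2.

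Bak1, at chr17:27019812-27028627 on the minus strand, was counted 216, 166 and 208 times in WT and 215, 220 and 220 times in MLX KO. Its groups overlapped at 11.2 ± 0.603 CPM and 11.6 ± 0.540 CPM (SD, n = 3), and only 1 of the 3 pairs was higher in MLX KO. The LFC was 0.05, with a 95% interval from -0.16 to 0.26 (adjusted p = 0.698 by edgeR's quasi-likelihood test), and it passed in 0 of the 15 alternative settings. Bak1 shares 614 exon bases with Ggnbp1 on the opposite strand. Ggnbp1 gave 9855 to 13776 counts a library and was lower in MLX KO (LFC -0.32, adjusted p = 0.00246), so the Bak1 value is uncertain if strand was not used. Within a library, Bax counts per Bak1 count were 0.556, 0.560 and 0.563 in the WT libraries, against 0.740, 0.709 and 0.636 in MLX KO, and the groups were apart.

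The pro-survival members went in both directions. Mcl1 encodes a short-lived protein that holds BIM and BAK, and lies at chr3:95656944-95663179 on the plus strand. It was counted 1721, 1391 and 1604 times in WT and 2039, 1883 and 2088 times in MLX KO. These are 90.7, 88.4 and 90.4 CPM in WT and 105, 104 and 110 CPM in MLX KO. All MLX KO libraries were above all WT libraries. Mcl1 was 1.19-fold higher (95% interval 1.10 to 1.27, LFC 0.25 ± 0.05 SE, adjusted p = 0.00157 by edgeR's quasi-likelihood test), with 0.21, 0.24 and 0.29 in the pairs. It passed in all 15 alternative settings, with an LFC of 0.22 to 0.39.

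Bcl2l1 encodes BCL-XL, which restrains BAX and BAK, and lies at chr2:152758732-152833803 on the minus strand. Its shorter splice form, BCL-XS, promotes death, and a count per gene does not separate the forms. It was counted 2254, 1977 and 2191 times in WT and 2132, 1952 and 2114 times in MLX KO. These are 119, 126 and 123 CPM in WT and 109.9, 108 and 112 CPM in MLX KO. The MLX KO libraries were all below the WT libraries. The level in MLX KO was 0.896 of that in WT (95% interval 0.835 to 0.962, LFC -0.16 ± 0.05 SE, adjusted p = 0.0168 by edgeR's quasi-likelihood test). The call was lost in edgeR without WT2, without WT3 or without KO2, and with library size alone (LFC -0.02, adjusted p = 0.751). The ratio of Mcl1 to Bcl2l1 counts within a library needs no scaling between libraries. Its groups had to be apart, because those of both genes were apart in opposite directions. Mcl1 counts per Bcl2l1 count were 0.764, 0.704 and 0.732 in the WT libraries, against 0.956, 0.965 and 0.988 in MLX KO, a 1.32-fold difference of the means with the groups apart.

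Bcl2, the founding member, lies at chr1:106538176-106714290 on the minus strand and was barely expressed. It was counted 20, 14 and 15 times in WT and 28, 17 and 31 times in MLX KO. Its exons share 558 bases with D630008O14Rik on the opposite strand, so these counts are uncertain if strand was not used. KO2 lay among the WT libraries, and the difference did not pass in edgeR's quasi-likelihood test (LFC 0.53, 95% interval -0.11 to 1.16, adjusted p = 0.158) or in any of the 15 alternative settings. At this depth counting alone gives a spread of 24.7% of the mean in WT, and the interval of Bcl2 includes both 0 and the LFC of Bax. The ratio of Bax to Bcl2 counts overlapped between the groups, with 6 to 7.80 across the WT libraries and 4.52 to 9.18 across the MLX KO libraries.

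BIM acts by binding the pro-survival proteins, so its transcript was also set against those of Bcl2l1 and Mcl1 within each library. These are ratios of RNA from mixed cell types and do not measure the proteins. Bcl2l11 counts per Bcl2l1 count were 0.0714, 0.0673 and 0.0680 in the WT libraries, against 0.136, 0.127 and 0.132 in MLX KO, with means of 0.0689 ± 0.00222 and 0.132 ± 0.00430 (SD, n = 3). The MLX KO mean was 1.91 times the WT mean. Against Mcl1, the mean ratio was 0.0940 ± 0.00142 in WT and 0.136 ± 0.00524 in MLX KO (SD, n = 3), 1.44 times as high. In both ratios the groups were apart, and no test was made of them. For the ratio to Bcl2l1 this follows from the groups of both genes being apart in opposite directions.

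**Figure D2:**
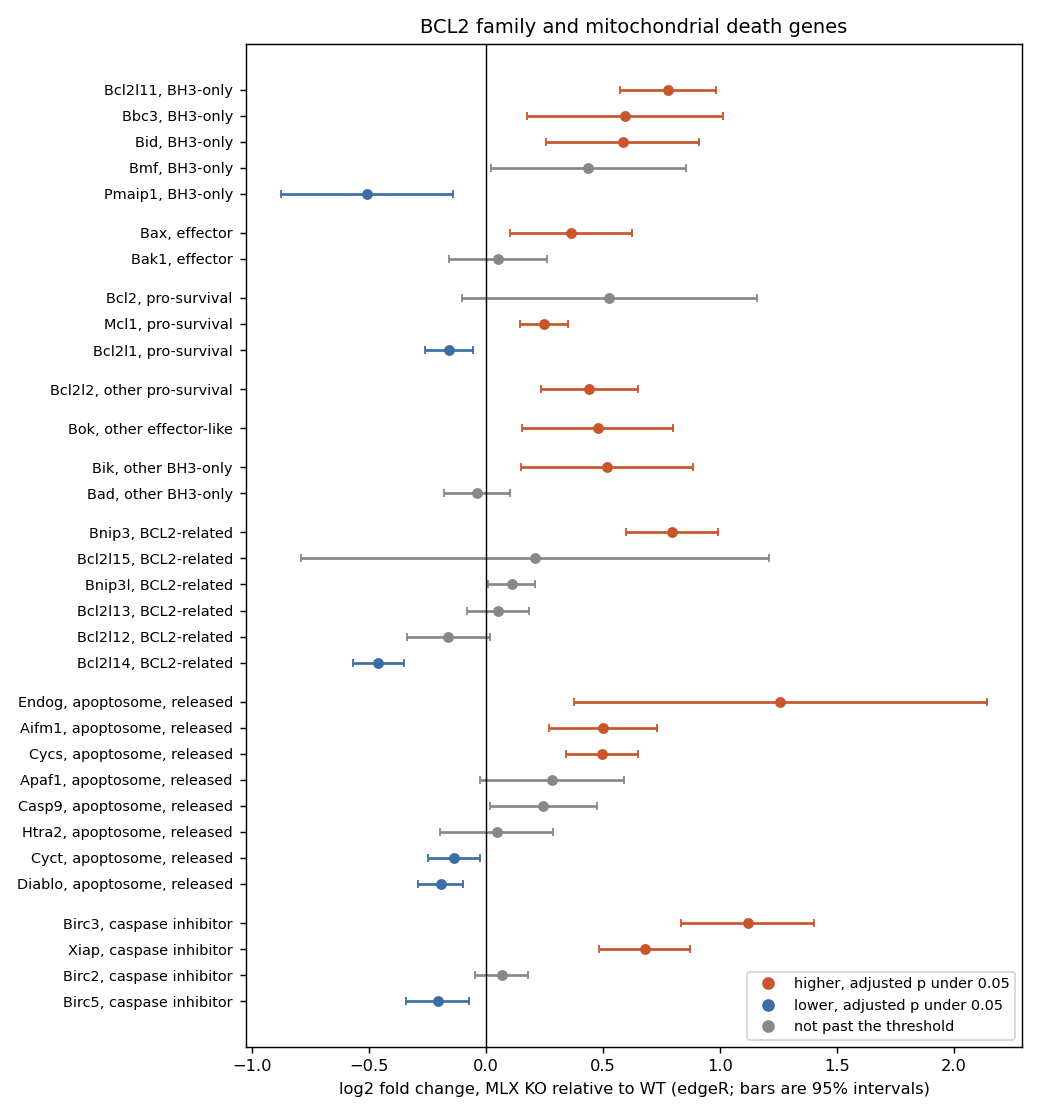
LFC of MLX KO relative to WT (horizontal axis, log2) with 95% intervals for the 10 members, the other BCL2 family genes tested, and genes of the apoptosome, released factors and caspase inhibitors. Orange marks genes higher and blue genes lower at an adjusted p under 0.05 by edgeR's quasi-likelihood test, and grey the rest. Bcl2l11, at 0.78, is the highest of the 10 members and Pmaip1, at -0.51, the lowest.

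Apart from the ratios of counts above, which are not divided by length, levels of different genes were compared per length. This is CPM divided by the kilobases (kb) of exon in the GENCODE basic annotation. In WT testes Bcl2l1 was highest at 31.6 ± 0.905 CPM per kb (SD, n = 3), followed by Mcl1 at 26.3 ± 0.364. Bax followed at 7.24 ± 0.397 and Bak1 at 4.70 ± 0.253. The BH3-only genes came next, with Bid at 1.85, Pmaip1 at 1.52, Bcl2l11 at 1.22, Bbc3 at 0.977 and Bmf at 0.456 CPM per kb, and Bcl2 was last at 0.102. In this order no neighbours' ranges over the 3 WT libraries overlapped, and the first and last levels differed 311-fold. The exon lengths matter for close neighbours: with the comprehensive annotation Bak1 ranked above Bax and Pmaip1 above Bid. The WT ranges of Bcl2l1 (25.9 to 27.4 CPM per kb) and Mcl1 (25.9 to 26.5 CPM per kb) then overlapped. With the basic annotation, in MLX KO testes Mcl1, at 31.2 ± 1.00, was above Bcl2l1, at 28.3 ± 0.505 CPM per kb (SD, n = 3), and Pmaip1 ranked 8 where it had ranked 6.

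Summed by class, the BH3-only members reached 5.87, 6.46 and 5.76 CPM per kb in the WT libraries and 8.21, 7.99 and 7.87 in the MLX KO libraries. The effectors summed to 12.1, 11.2 and 12.5 in the WT libraries, against 14.1, 15.04 and 13.4 CPM per kb in MLX KO. The pro-survival members summed to 57.2, 58.3 and 58.3 in the WT libraries, against 59.2, 58.3 and 61.3 CPM per kb in MLX KO. In every class the summed level per kb was thus higher in each MLX KO library than in any WT library. Of single genes, 30.3% of all tested were so placed by CPM. For the pro-survival class the margin was slight, with 58.31 in WT3 and 58.33 CPM per kb in KO2. Summed as CPM without division by length, its groups overlapped, with 215 CPM in WT2 and 213 CPM in KO2. The means of that class were 57.9 in WT and 59.6 CPM per kb in MLX KO. Bcl2l1 and Mcl1 made up 76.2% of the summed level of the 10 members in WT and 72.7% in MLX KO.

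**Figure D3:**
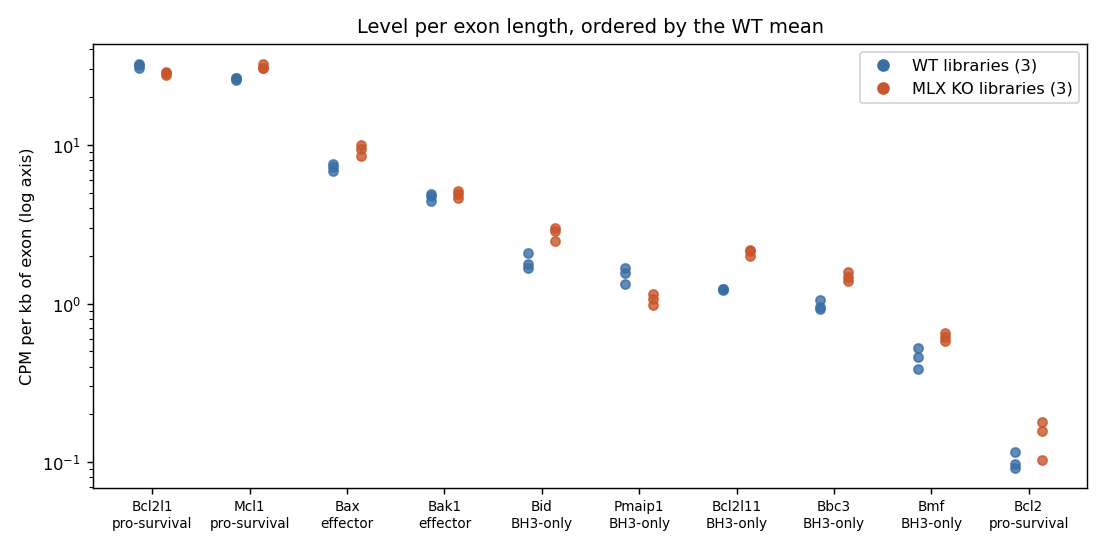
Level of each member in CPM per kb of exon (vertical log axis) in the 3 WT and 3 MLX KO libraries, in the order of the WT mean. Points are libraries. Bcl2l1 and Mcl1 lead, and with these exon lengths Bcl2l1 is above Mcl1 in WT and below it in MLX KO.

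Testis RNA comes from many cell types, and in bulk tissue fewer cells of a type cannot be told apart from less RNA per cell. All 12 markers of elongating spermatids tested were lower in MLX KO (median LFC -0.54), and their summed level was 24321 to 25307 CPM in WT and 14499 to 17729 CPM in MLX KO. All 10 round spermatid markers were lower (median LFC -0.26), 8 of 10 with the pair as a block, and with library size alone 4 were lower and the median was -0.12. Of 12 spermatocyte markers 8 were lower and 0 higher (median LFC -0.16), though with library size alone the median was -0.02 and 1 was lower. Spermatogonia markers gave 2 higher and 1 lower of 10, or 3 and 0 with library size alone.

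Markers of several somatic cell types were higher. All 10 Sertoli cell markers in the table rose (median LFC 0.79, summed level 1114 to 1163 CPM in WT and 1675 to 2047 CPM in MLX KO), as did all 8 Leydig cell markers (median LFC 1.16, 864 to 885 CPM against 1858 to 2445 CPM). All 9 macrophage markers in the table rose (median LFC 1.28, 76.0 to 80.1 CPM against 146 to 153 CPM). Among them Cx3cr1 only just passed (adjusted p = 0.0494 by edgeR's quasi-likelihood test). Its groups overlapped, with KO3 at 3.97 CPM below the lowest WT library, WT2, at 4.07 CPM. Of 6 peritubular myoid markers 4 were higher and 1 lower, and of 7 endothelial markers 2 were higher, or 3 with the pair as a block. Lymphocyte markers were near the limit of counting, with 0 of the 3 tested past the threshold and 5 of the 8 listed at too few counts to test. The LFC values of the 5 members that rose, from 0.25 to 0.78, lie below the medians of the Sertoli, Leydig and macrophage lists, for Bcl2l11 only just below the Sertoli median. Bcl2l11, Bbc3 and Bid lie above the medians of the endothelial (0.55) and peritubular myoid (0.44) lists, and Bax and Mcl1 below both. The part of these shifts in the members' values was not tested.

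**Figure D4:**
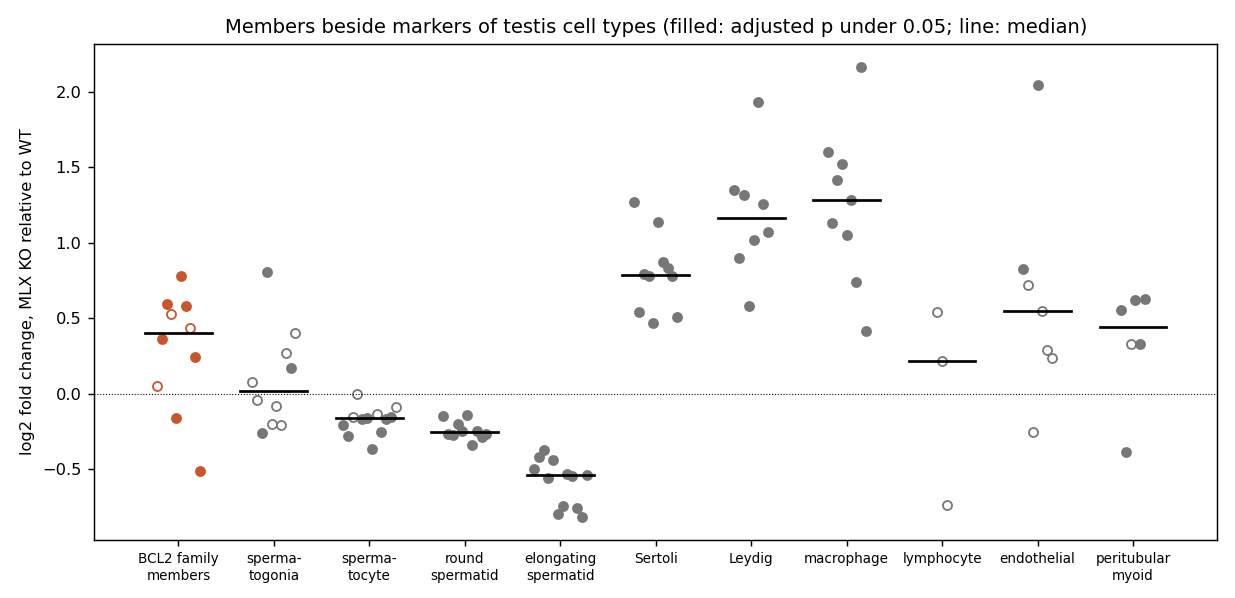
LFC of MLX KO relative to WT (vertical axis, log2) of the 10 members, in orange, and of marker genes of testis cell types, in grey. Each point is a gene, filled at an adjusted p under 0.05 by edgeR's quasi-likelihood test, and lines are medians. The median is 0.40 for the members, -0.54 for elongating spermatid markers and 1.28 for macrophage markers.

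Outside the 10 members, 10 other BCL2 family genes had enough counts to test, and 4 were higher and 1 was lower, beside 24.8% and 20.6% of all genes. With library size alone 6 were higher and 1 lower. Bcl2l2 encodes BCL-W, a pro-survival protein known to be needed for spermatogenesis, and rose from 29.3 ± 2.67 to 39.8 ± 4.61 CPM (SD, n = 3, LFC 0.44, adjusted p = 0.00313 by edgeR's quasi-likelihood test). Bok, an effector-like gene, rose (LFC 0.48, adjusted p = 0.0208), and so did Bik, a BH3-only gene (LFC 0.52, adjusted p = 0.0260), though DESeq2 called neither (adjusted p = 0.0614 and 0.0561). Bnip3, which encodes a mitophagy receptor, rose (LFC 0.79, adjusted p = 6.47e-05). Bad, whose protein is held inactive by survival kinases, was at 31.4 ± 0.467 and 30.5 ± 1.29 CPM (SD, n = 3), with an adjusted p of 0.648.

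Of these 10 other genes, the one that fell was Bcl2l14, which encodes BCL-G. Per length it was the most abundant of the family genes listed, at 208 ± 7.72 CPM per kb in WT and 151 ± 5.37 CPM per kb in MLX KO (SD, n = 3). All 3 MLX KO libraries were below the WT libraries (LFC -0.46 ± 0.05 SE, adjusted p = 5.46e-05 by edgeR's quasi-likelihood test), and so in all 3 pairs. Bcl2l12, Bcl2l13, Bcl2l15 and Bnip3l did not pass. Bcl2l10, Hrk and the near-identical copies Bcl2a1a, Bcl2a1b and Bcl2a1d, between which reads may be split, had too few counts to test. Hrk, a BH3-only gene, was counted 3, 0 and 0 times in WT and 2, 5 and 10 times in MLX KO.

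Downstream of the pore, 3 of 8 listed genes of the apoptosome and the released factors were higher and 2 lower, beside 24.8% and 20.6% of all genes. With library size alone 5 were higher and 0 lower. Cytochrome c has a somatic and a testis form, and their genes moved apart. Cycs, the somatic form, was at 46.4, 47.5 and 46.4 CPM in WT and 59.0, 71.9 and 67.0 CPM in MLX KO (LFC 0.50, adjusted p = 2.81e-04 by edgeR's quasi-likelihood test). Cyct, the form of male germ cells, was at 58.6, 61.3 and 59.4 CPM in WT and 55.2, 54.4 and 53.4 CPM in MLX KO (LFC -0.14, adjusted p = 0.0425), and its call was lost with the pair as a block (adjusted p = 0.0674) and with library size alone, where its LFC turned to 0.00. Both genes had groups that did not overlap.

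Aifm1, which encodes apoptosis-inducing factor, rose (LFC 0.50, adjusted p = 0.00287 by edgeR's quasi-likelihood test), as did Endog, a mitochondrial nuclease gene with only 4 to 15 counts in WT (LFC 1.26, adjusted p = 0.0246). Diablo, which encodes the released antagonist of caspase inhibitors, fell (LFC -0.19, adjusted p = 0.00398), and its LFC was -0.06 with library size alone. Apaf1, Casp9 and Htra2 did not pass. Of the 4 inhibitor of apoptosis genes 2 were higher and 1 lower, beside 24.8% and 20.6% of all genes. Xiap (LFC 0.68, adjusted p = 1.62e-04) and Birc3 (LFC 1.12, adjusted p = 7.97e-05) were higher, Birc5, better known for its part in cell division, was lower (LFC -0.21, adjusted p = 0.0175), and Birc2 did not pass. With library size alone 3 were higher and 0 lower: Birc2 passed (LFC 0.21, adjusted p = 0.0123) and Birc5 did not (LFC -0.07, adjusted p = 0.338).

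Of 7 genes for outer membrane channels and partners of the family, Vdac1 (LFC 0.73, adjusted p = 7.93e-05 by edgeR's quasi-likelihood test) and Usp9x, which encodes a deubiquitinase of MCL1 (LFC 0.24, adjusted p = 0.00566), were higher. Vdac2, whose protein brings BAK to the membrane (LFC -0.16, adjusted p = 0.0215), and Dynll1, the dynein light chain that binds BIM (LFC -0.23, adjusted p = 0.00290), were lower. Huwe1, a ligase for MCL1, did not pass (adjusted p = 0.0514) but did with the pair as a block (adjusted p = 0.04997), and Vdac3 and Dynll2 did not pass. These are 2 of 7 in each direction, beside 24.8% of all genes higher and 20.6% lower, and with library size alone 3 were higher and 0 lower.

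Of 9 transcription factors known to control BH3-only genes, 4 were higher and 2 lower, beside 24.8% and 20.6% of all genes. Foxo1 (LFC 0.67, adjusted p = 4.67e-04 by edgeR's quasi-likelihood test) and Foxo3 (LFC 0.57, adjusted p = 8.59e-04), which can induce Bcl2l11 and Bbc3, were higher, and Foxo4 just missed (adjusted p = 0.0502) and passed with the pair as a block (adjusted p = 0.0449). Trp53 (LFC 0.34, adjusted p = 0.0366) and Atf4 (LFC 0.27, adjusted p = 0.0152) were higher. Trp63, the p53 relative of germ cells, was lower (LFC -0.68, adjusted p = 0.0145), as was Ddit3, which encodes CHOP (LFC -0.18, adjusted p = 0.0327). The groups of Trp53 overlapped, and DESeq2 called neither Trp53 nor Trp63 (adjusted p = 0.0679 and 0.0589). In edgeR with library size alone the LFC of Ddit3 was -0.04 (adjusted p = 0.570). Trp73 and E2f1 did not pass. With library size alone 5 of the 9 were higher and 1 was lower.

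The genes whose pattern over the 6 libraries was most like that of Bcl2l11, by Pearson's r of log2 CPM, were Camk1 (r = 0.998), Epas1 (r = 0.996) and Scn3b (r = 0.996). The 6 points share 2 genotypes, and these values describe mainly that split. The LFC of these genes was 1.24 for Camk1, 0.46 for Epas1 and 3.97 for Scn3b, so they share the pattern with different sizes of change.

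**Figure D5:**
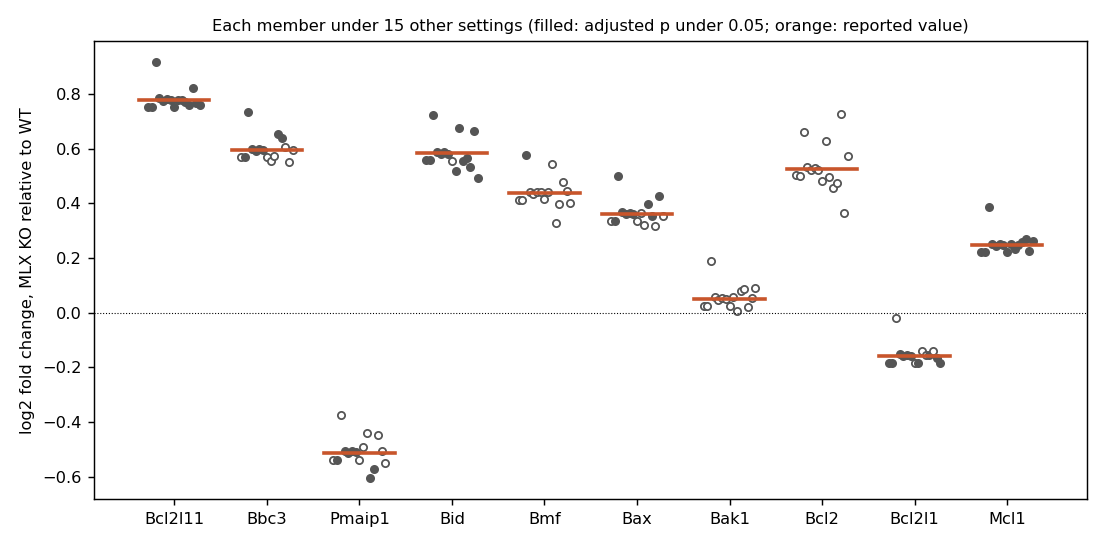
LFC of MLX KO relative to WT (vertical axis, log2) of each of the 10 members under 15 alternative settings. Points are settings, filled at an adjusted p under 0.05, and the orange line is the reported value. Bcl2l11 and Mcl1 are filled under all 15, and no member has points on both sides of 0.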

How the data were processed

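RNA-seq reads of 50 bases from both ends were made from whole testes (3 WT, 3 MLX KO). The authors aligned them to mm10 with TopHat and deposited whole-number counts per gene symbol and library. The counting tool, its strand setting and the annotation are not given in the sources used here. The table also holds the authors' own comparison (a mean, log2 fold changes with errors, a test score and p-values), which was not used, and ChIP-Seq samples were not analysed here.

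Of 17933 rows, 2 repeated another and were used once. In edgeR 4.0.16 (R 4.3.3), the default count filter with a minimum of 10 kept 14640 genes, libraries were scaled by TMM, and the quasi-likelihood test had genotype as its only term. P-values were two-sided and Benjamini-Hochberg adjusted. P-values rest on 3 animals per genotype, with the variance of each gene moderated toward a trend over all genes. DESeq2 1.42.0, other scalings and filters, and leaving out each library were alternatives. The steps were tested on simulated data.

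The titles name paired replicates and the animals were littermates, so the numbers were taken as pairs. Within pairs 1, 2 and 3, each library's deviations of log2 CPM from its group mean had correlations of 0.145, 0.0363 and 0.121, and no other WT and MLX KO libraries exceeded 0.0330. Counts of libraries of 1 genotype differed beyond sampling noise, with chi-square values of 2.74 to 8.29 per degree of freedom, highest for KO1 against either other MLX KO library.

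The members, lists and tests were chosen with earlier results of these data known. Named were all 10 members, listed family, pathway and marker genes, Mlx, and the 3 genes most like Bcl2l11. Some listed genes are not reported here. Promoters and coordinates are from RefSeq, matched by symbol for all 10 members, with windows read for 9. Exon lengths are from GENCODE. mm10 and GRCm38 share coordinates.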

Additional observations from a re-analysis of the deposited data

How the results depend on the processing

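The direction of the LFC held for all 10 members in all 15 alternative settings, and 122 of the 150 member values kept their side of the threshold, while 27 lost and 1 gained the call. The count of members past the threshold was 7 with DESeq2's size factors, upper-quartile factors, either other filter or the littermate pair as a block in edgeR, and 6 with library size alone. It was 4 in DESeq2 and 2 in DESeq2 with the pair as a block, where 39.4% and 31.4% of all genes passed. Leaving out 1 library at a time gave 3 to 7 members, with 4 without WT1, 3 without WT2, 6 without WT3, 7 without KO1, 3 without KO2 and 5 without KO3, where 34.7% (without KO2) to 50% (without KO1) of all genes passed. Leaving out both libraries numbered 1, an alternative chosen after seeing the data because KO1 stood apart, gave 4, where 47.8% of all genes passed. Several of these counts are near or below the share over all genes. The cause of these changes was not tested. Fits with libraries left out also held fewer libraries. Over all genes the littermate block gave 6742 calls (edgeR) and 4604 calls (DESeq2), and the count was 5131 to 7396 with 1 library left out. Depth limits Bbc3, Bmf and Bcl2 most, with 14 to 61 counts a library.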
